A study of Mus musculus with 16 samples.

Results

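The GIMAP GTPase family was followed in CD8+ T cells exposed to prostaglandin E2 (PGE2) and to T cell receptor stimulation. The 8 members, Gimap1, Gimap3, Gimap4, Gimap5, Gimap6, Gimap7, Gimap8 and Gimap9, were taken by name from the 54532 genes of the count table. Gimap7 was chosen by its measured rise with PGE2, so its values are a description and carry no test, whereas the other 7 genes belong to the family by name.

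RNA was sequenced from 16 cultures, 4 in each of 4 groups. All were CD8+ T cells with TCF1 that had been activated repeatedly, and which the authors call antigen-experienced. They were grown for 4 days from splenic naive CD8+ T cells of C57BL/6J mice with beads against CD3 and CD28 and a low dose of IL-2. The unstimulated untreated group was first held for 1 h without PGE2 and then kept for 4 h in IL-2 at 85 U per ml. The unstimulated PGE2 group was first held for 1 h with PGE2 at 100 ng per ml and then kept in the same IL-2. The stimulated untreated group and the stimulated PGE2 group were handled in the same ways, and additionally received anti-CD3/CD28 beads at 1 bead per cell for the 4 h. All 4 groups therefore had IL-2, and the cells are a culture model and not cells taken from a tumour. The labels number the replicates but do not say whether they came from separate mice, so p-values measure the spread between these cultures.

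GIMAP proteins (GTPases of the immunity-associated protein family) are GTP-binding proteins found mainly in lymphocytes, and several of them sit on membranes of lysosomes, mitochondria or the endoplasmic reticulum. The family is best known for its part in the survival and quiescence of T cells, and loss of Gimap5 leaves mice and rats short of peripheral T cells. PGE2 acts on T cells mainly through the receptors EP2 and EP4, which raise cyclic AMP.

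The 8 genes lie side by side on mouse chromosome 6, within chr6:48647234-48770851 of GRCm38, a span of 123.618 kb. Along the chromosome the order was Gimap8 (chr6:48647234-48660875, plus strand), Gimap9 (chr6:48676129-48679114, plus), Gimap4 (chr6:48684549-48692060, plus) and Gimap6 (chr6:48701582-48708225, minus). Next came Gimap7 (chr6:48718621-48724636, plus), Gimap1 (chr6:48739054-48743795, plus), Gimap5 (chr6:48746197-48754210, plus) and Gimap3 (chr6:48764464-48770851, minus). Not all of the exon sequence is private to a member. In Gimap1, 36.0% of the exon bases overlapped exons of Gimap1os on the opposite strand, and because the use of strand in counting is not stated, reads of this pair cannot be told apart. The read-through gene Gm28053 covered 6.44% of the exon bases of Gimap1, 3.69% of those of Gimap5 and 3.48% of those of Gimap7. Gimap3 and Gimap5 also resemble each other: 7.52% of the 50-base stretches of Gimap3 transcripts recurred exactly in Gimap5, and 4.53% in the reverse direction, whereas no 50-base stretch of the other 6 genes occurred in another member.

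The promoters of 3 genes are shown because these genes stand for the patterns below: Gimap7, the gene picked for its rise with PGE2, Gimap6, whose levels followed it most closely among the members, and Gimap5, which moved the opposite way upon stimulation. Each line gives the 250 bases before the RefSeq start on GRCm38.p6, 5′ to 3′ on the strand of the gene. Capitals mark GGAAA (the NFAT core) or CACCC (the KLF box) on either strand.
Gimap7, chr6:48718371-48718620, plus strand: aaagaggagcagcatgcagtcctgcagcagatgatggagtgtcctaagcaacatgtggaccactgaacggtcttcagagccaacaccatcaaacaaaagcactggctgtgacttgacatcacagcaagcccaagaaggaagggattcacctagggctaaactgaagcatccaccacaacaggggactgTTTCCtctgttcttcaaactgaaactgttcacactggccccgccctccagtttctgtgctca
Gimap6, chr6:48708245-48708494, minus strand: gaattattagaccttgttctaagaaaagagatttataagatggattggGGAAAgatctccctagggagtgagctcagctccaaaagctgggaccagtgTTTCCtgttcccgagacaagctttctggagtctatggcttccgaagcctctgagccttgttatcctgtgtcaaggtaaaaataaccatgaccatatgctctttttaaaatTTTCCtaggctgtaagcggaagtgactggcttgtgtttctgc
Gimap5, chr6:48745947-48746196, plus strand: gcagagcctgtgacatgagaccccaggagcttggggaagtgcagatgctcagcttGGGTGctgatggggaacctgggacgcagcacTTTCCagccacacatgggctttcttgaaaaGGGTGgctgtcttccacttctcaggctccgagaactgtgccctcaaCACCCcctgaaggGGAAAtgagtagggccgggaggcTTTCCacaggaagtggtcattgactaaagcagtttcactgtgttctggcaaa
The stretch before Gimap7 holds a single GGAAA core and no CACCC, that before Gimap6 holds 3 GGAAA cores, and that before Gimap5 holds 3 of each. The end of the Gimap7 stretch reaches into Gm28053, which starts at 48718607.

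RefSeq promoters, 9 in all, belong to the 8 genes, since Gimap8 has 2, and 32851 promoters of the same length served as the background. The windows of Gimap8 (chr6:48646984-48647233 and chr6:48647111-48647360) overlap and share a CACCC, so they are not independent in the counts below. The NFAT core occurred in 7 of the 9, against 55.6% of all promoters, and the KLF box in 6 of the 9, against 52.0%. The RUNX letters TGTGGT occurred in 3 (14.0% of all promoters), the ETS letters GGAAGT in 2 (19.7%) and the FOXO letters TGTTTAC in 1, that of Gimap3 (3.17%). The cyclic AMP response element was looked for as the core TGACG, present in 17.8% of all promoters, and as the palindrome TGACGTCA, which contains the core and was present in 1.55%. Neither was found in the 9 windows, nor were the AP-1 letters TGANTCA (6.75% of all promoters) or the TCF letters CTTTGA (13.8%). Both strands were searched, and a match or its absence describes only these letters in these windows.

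Library totals ranged from 22678254 to 42950763 counts, and the smallest count of any member in any sample was 1885, so all 8 genes passed the filter on low counts. Markers of the labelled cell type were expressed. Cd8a averaged 987 CPM (counts scaled to library size, after TMM) in unstimulated untreated cells, 719 with PGE2, 1151 after stimulation and 855 after both, and Cd8b1 699.7, 545, 550.3 and 461 CPM, so that both were lower with PGE2, opposite to the family. Cd3d averaged 442, 423, 336 and 343 CPM in the same order, and Cd3e 318, 323, 225 and 236 CPM. These genes moved less with PGE2 than Cd8a and Cd8b1, and Cd3e was slightly higher with it in both settings. Over the 5 CD8 T cell markers (Cd3d, Cd3e, Cd8a, Cd8b1 and Tcf7) the sum averaged 3622, 3196, 2571 and 2302 CPM in the same order. Tcf7, which encodes TCF1, averaged 1175 and 1187 CPM in the unstimulated groups and 309 and 407 CPM in the stimulated groups. The summed lists of other lineages were low, at up to 10.2 CPM over the 16 samples for CD4 T cells, 4.40 to 20.3 for B cells, 3.12 to 6.67 for myeloid cells, 0.794 to 7.69 for NK cells, at most 0.423 for erythroid cells and 1.31 to 3.44 for platelets. Within them Cd4, Ms4a1, Lyz2, Csf1r and Klrb1c averaged less than 1 CPM in every group and Ncr1, Hbb-bs, Pf4 and Ppbp had no count, whereas Foxp3 averaged 4.24 to 5.93 CPM, Cd40lg up to 2.91, Cd79a 1.24 to 2.25 and Itga2b 1.81 to 2.91. Cd68, of the myeloid list, averaged 3.66, 5.10, 3.27 and 3.89 CPM in the group order above. The endothelial list did move with the groups, from 97.1–121 CPM in unstimulated untreated cells to 133–164 with PGE2, 47.6–51.5 after stimulation and 65.3–76.4 after both, but nearly all of it was Pecam1, and the defining genes Cdh5 and Kdr had at most 12 and 3 counts in a sample. Cd79b, of the B cell list, averaged 13.1, 9.17, 5.45 and 4.08 CPM in the same order, and Klrc1, of the NK cell list, 1.47, 3.57, 2.41 and 4.69 CPM. The part of these markers in the results was not tested. In bulk RNA, a change in the share of cells with a transcript cannot be told apart from a change in the amount per cell.

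The family was abundantly transcribed in all 4 groups, and its members differed widely in level. Per length of transcript, on the FPKM scale, Gimap4 was the most abundant, at 509 ± 28.7 FPKM in unstimulated untreated cells (SD, n = 4), which placed it 78th of 22046 protein-coding genes. Gimap4 is known to hasten the death of T cells that have received an apoptotic signal. Gimap3, a membrane-anchored relative of Gimap5, followed at 290 ± 24.4 FPKM and Gimap6, which takes part in autophagy, at 143 ± 12.4 FPKM. Gimap7, which is found on lipid droplets, reached 79.5 ± 5.49 FPKM and Gimap1, required for the survival of mature lymphocytes, 73.3 ± 6.79 FPKM, and the ranges of this pair overlapped. Gimap9 stood at 61.5 ± 2.67 FPKM and Gimap8, a large member with several GTP-binding domains, at 52.5 ± 2.97 FPKM. Gimap5, the lysosomal member best known for T cell survival, was the lowest at 19.6 ± 1.39 FPKM, ranked 2432nd. It stayed the lowest in each group, and Gimap4 the highest, as the plot of levels per length shows.

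**Figure D1:**
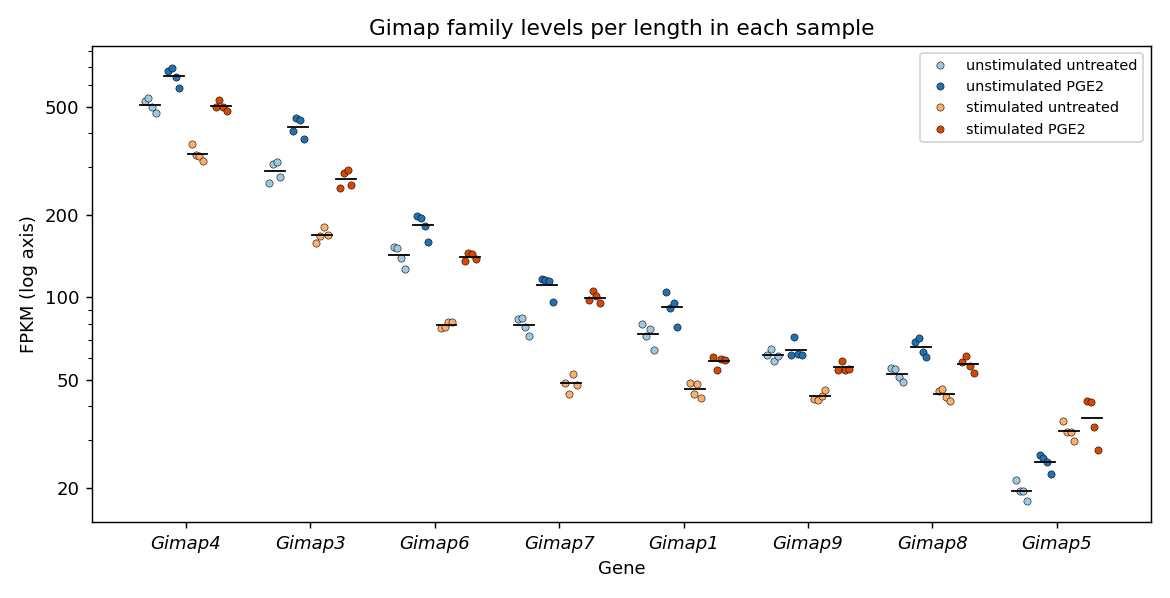
FPKM (log axis) of each of the 8 Gimap genes, ordered by their level in unstimulated untreated cells, with 1 point per sample, coloured by group, and a line at the mean of 4. Gimap4 is highest and Gimap5 lowest in every group, and Gimap5 alone is higher in stimulated than in unstimulated cells, while the other 7 genes are lowest in the stimulated untreated group.

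Summed over the 8 genes, the family reached 3122 ± 160 CPM in unstimulated untreated cells, 4067 ± 289 CPM in unstimulated PGE2 cells, 2055 ± 50.2 CPM in stimulated untreated cells and 3139 ± 137 CPM in stimulated PGE2 cells (SD, n = 4). Stimulated untreated cells thus had the lowest sum, between 2009 and 2126 CPM, and unstimulated PGE2 cells the highest, between 3658 and 4329 CPM. The sums of stimulated PGE2 cells, 3004 to 3283 CPM, overlapped those of unstimulated untreated cells, 2895 to 3271 CPM. The family took 0.325% of all counts in unstimulated untreated cells, 0.433% with PGE2, 0.191% after stimulation and 0.304% after both.

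The first comparison asks how stimulation through the T cell receptor and CD28 changed the family in the absence of PGE2. Of the 7 genes tested, Gimap1, Gimap3, Gimap4, Gimap6, Gimap8 and Gimap9 fell and Gimap5 rose (all 7 passed edgeR's quasi-likelihood test, adjusted p below 0.05 over all genes); Gimap7 was lower after stimulation and is described without a test. Such calls were common here: 34.8% of the 14205 genes tested were called lower and 31.7% higher. The median over the 7 tested genes was −0.61 on the log2 scale, against −0.03 over all genes tested. No member reached a fold change of 2; 23.2% of genes were DEGs, which required a fold change of at least 2 together with an adjusted p below 0.05.

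Gimap6 fell the furthest. Its levels were 560, 558, 516 and 468 CPM in unstimulated untreated cells and 277, 282, 302 and 305 CPM in stimulated untreated cells. The groups lay well apart, and the log2 fold change was −0.86 ± 0.08 (SE; edgeR adjusted p = 6.29e-07). Gimap3 fell from 786 ± 67.8 to 460 ± 33.3 CPM (SD, n = 4), a log2 fold change of −0.79 ± 0.08 (edgeR adjusted p = 3.63e-06). Gimap7 measured 204, 204, 192 and 177 CPM without stimulation and 116, 107, 131 and 120 CPM with it. Its log2 fold change was −0.73 ± 0.08, given without a test because these untreated cultures also entered the contrasts by which Gimap7 was picked. Gimap1 (−0.68 ± 0.08), Gimap4 (−0.61 ± 0.07) and Gimap9 (−0.51 ± 0.06) fell by similar amounts, while Gimap8 fell least, from 204 ± 10.7 to 172 ± 4.59 CPM (−0.26 ± 0.07; edgeR adjusted p = 0.00356). None of the 6 genes that fell overlapped between the groups, as was the case for 31.2% of all genes tested on the lower side.

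Gimap5 went the other way. It measured 93.0, 84.9, 85.5 and 78.9 CPM in unstimulated untreated cells and 150, 139, 142 and 132 CPM in stimulated untreated cells. The lowest stimulated culture was above the highest unstimulated culture, and the log2 fold change was 0.71 ± 0.07, or 1.63-fold (edgeR adjusted p = 3.12e-06). Without overlap, 30.4% of all genes tested were higher in stimulated cells.

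In the presence of PGE2, stimulation lowered Gimap1 (−0.62 ± 0.09 on the log2 scale, SE), Gimap3 (−0.60 ± 0.08), Gimap6 (−0.35 ± 0.08) and Gimap4 (−0.33 ± 0.07) and raised Gimap5 (0.57 ± 0.13). These 5 of the 7 genes tested passed (edgeR adjusted p from 8.47e-05 for Gimap1 to 0.00218 for Gimap5), where 31.7% of the 14507 genes tested were called lower and 32.5% higher. The median over the 7 tested genes was −0.33, against 0.00 over all genes tested. Gimap9 (−0.18 ± 0.07, adjusted p = 0.0540) and Gimap8 (−0.17 ± 0.08, adjusted p = 0.0637) did not pass in edgeR. They lay close to the threshold and passed in 10 of 17 alternative analyses each. The Gimap7 values in this comparison were 282, 280, 276 and 233 CPM in unstimulated PGE2 cells and 236, 258, 250 and 234 CPM in stimulated PGE2 cells, with a log2 fold change of −0.12 ± 0.08 that is given without a test, since the pick rests on the same cultures. Gimap5 was more variable in stimulated PGE2 cells than elsewhere, with 180, 181, 149 and 121 CPM against 114, 111, 107 and 98.1 CPM in unstimulated PGE2 cells. Even the lowest of the stimulated cultures was above the highest of the unstimulated ones. The share of all genes that did so is not given for this comparison. Without PGE2 it was 30.4%.

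**Figure D2:**
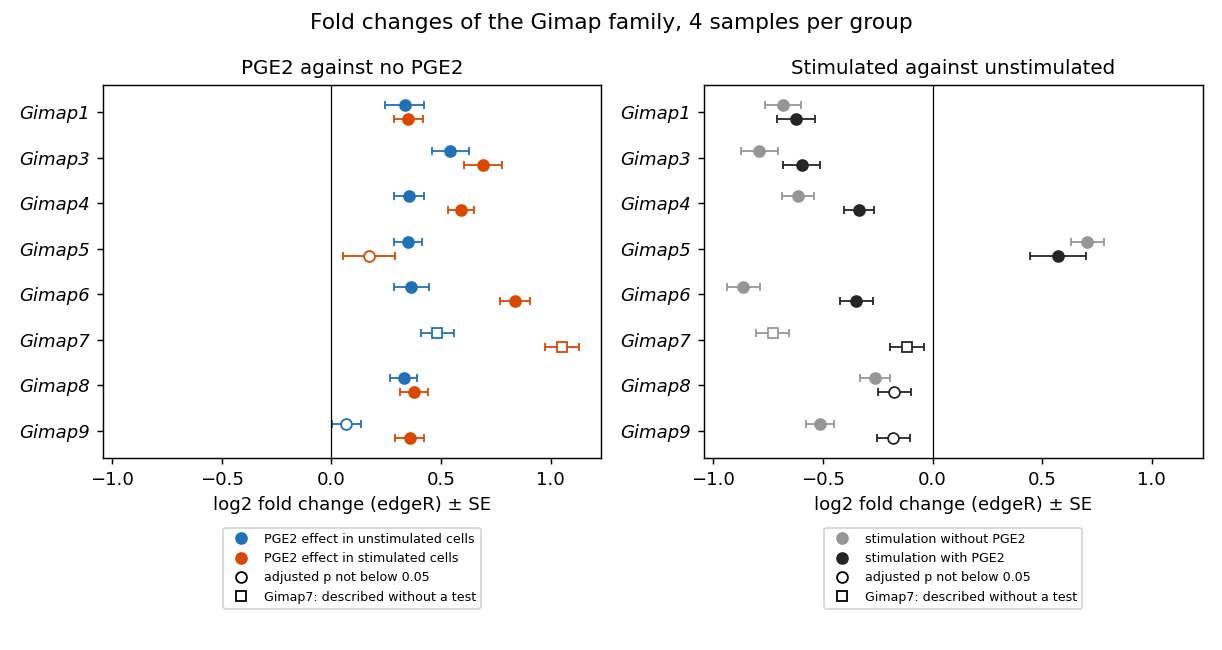
Log2 fold changes with SE from edgeR for the 8 Gimap genes, for PGE2 against no PGE2 on the left and for stimulated against unstimulated cells on the right (4 samples per group). Open circles did not pass adjusted p below 0.05 and open squares mark Gimap7, which is described without a test. With PGE2 all values are above 0, and upon stimulation all are below 0 except those of Gimap5.

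The make-up of the family was compared by the share of each gene in its counts. Gimap5 supplied 2.74 ± 0.15% of the counts of the 8 genes in unstimulated untreated cells and 6.85 ± 0.36% in stimulated untreated cells, and with PGE2 2.64 ± 0.08% and 5.02 ± 0.86% (SD, n = 4). Relative to the other 7 genes it gained 1.38 on the log2 scale upon stimulation without PGE2 and 0.94 with PGE2. Both differences had an exact two-sided permutation p of 0.0286, the smallest that 4 against 4 samples can give. Their adjusted p was 0.0508 over the 16 such tests made, so neither passed the correction. Every test at this smallest p has that same adjusted p whatever the size of its shift, so the correction cannot tell these shifts apart. Gimap5 was not alone: the same permutation p and adjusted p belonged to Gimap6 (−0.29) and Gimap8 (0.38) without PGE2. With PGE2 they belonged to Gimap1 (−0.28), Gimap3 (−0.32), Gimap8 (0.20) and Gimap9 (0.19) as well. These shifts were smaller than those of Gimap5. The 16 include Gimap7, whose share is only described but whose values enter the correction. Per length, Gimap5 stood at 0.0681 ± 0.00898 of the FPKM of Gimap3 in unstimulated untreated cells and at 0.191 ± 0.0220 in stimulated untreated cells, although the 2 genes share part of their sequence. The excess of Gimap4 over Gimap5 in FPKM narrowed from 26.0 ± 1.29 to 10.4 ± 0.138 times. Gimap7 made up 6.23 ± 0.18%, 6.59 ± 0.19%, 5.76 ± 0.34% and 7.79 ± 0.06% of the family's counts in unstimulated untreated, unstimulated PGE2, stimulated untreated and stimulated PGE2 cells.

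**Figure D3:**
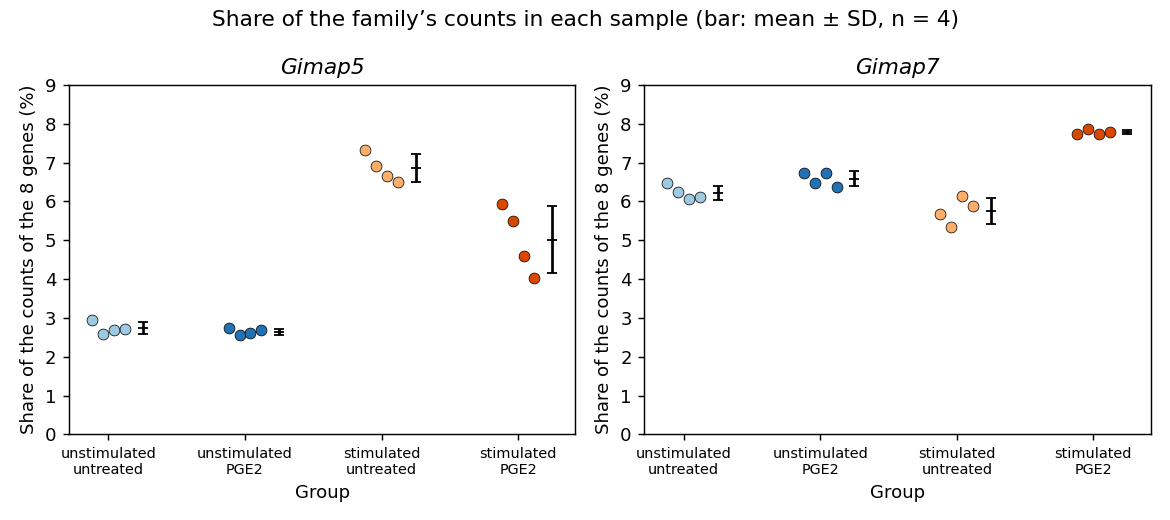
Share of the counts of the 8 Gimap genes that belongs to Gimap5 (left) and Gimap7 (right), in percent, with 1 point per sample by group and the mean ± SD of 4 beside the points. The Gimap5 share lies near 2.7% in unstimulated cells and at 4.04% to 7.33% in stimulated cells, and the Gimap7 share is highest in stimulated PGE2 cells.

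The next comparison asks what PGE2 did to the family in stimulated cells. All 8 values were higher with PGE2. Of the 7 genes tested, Gimap1, Gimap3, Gimap4, Gimap6, Gimap8 and Gimap9 passed, all upwards, whereas 6.04% of the 13922 genes tested were called higher, or 19.1% with the replicate number as a block. Their rises were between 1.28-fold and 1.79-fold, and so below a fold change of 2; 1.2% of genes were DEGs in this direction. The median of the 7 tested genes was 0.38 on the log2 scale and that of all genes tested was −0.01.

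Gimap6 rose the most of the genes tested, from the 277 to 305 CPM given above to 492, 536, 537 and 511 CPM. Each PGE2 culture was far above each untreated culture, and the log2 fold change was 0.84 ± 0.07 (SE; edgeR adjusted p = 1.28e-04). Gimap3 rose from 419–499 to 673–806 CPM (0.69 ± 0.08; edgeR adjusted p = 0.00111) and Gimap4 from 621–687 to 939–1018 CPM (0.59 ± 0.06; edgeR adjusted p = 4.25e-04). Gimap8 (0.38 ± 0.06), Gimap9 (0.36 ± 0.07) and Gimap1 (0.35 ± 0.07) rose by less, with edgeR adjusted p-values between 0.00599 and 0.00967. The groups did not overlap for any of these 6 genes, as for 9.58% of all genes tested on the higher side. Gimap7, chosen for this rise, measured 116, 107, 131 and 120 CPM without PGE2 and 236, 258, 250 and 234 CPM with it, a log2 fold change of 1.05 ± 0.08 or 2.07-fold.

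Gimap5 was the member that did not pass in stimulated cells. Its untreated values, 132 to 150 CPM, lay within the range of its PGE2 values, 121 to 181 CPM, and it was higher with PGE2 in 3 of 4 same-numbered pairs. The log2 fold change was 0.17 ± 0.12 (edgeR adjusted p = 0.370). The spread of its PGE2 values, an SD of 28.6 CPM against 7.41 CPM without PGE2, limits what this comparison can show.

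In unstimulated cells, of the 7 genes tested, Gimap1, Gimap3, Gimap4, Gimap5, Gimap6 and Gimap8 passed with PGE2, all upwards, where 12.9% of the 14505 genes tested were called higher (23.6% with the replicate block). The median of the 7 tested genes was 0.35 on the log2 scale, against −0.00 over all genes tested. Gimap3 rose the most of them, from 786 ± 67.8 to 1128 ± 88.0 CPM (0.54 ± 0.08; edgeR adjusted p = 6.81e-04), and the rest rose by 0.33 to 0.37, or 1.26-fold to 1.29-fold. Gimap6 measured 721, 710, 658 and 582 CPM with PGE2, all above the 468 to 560 CPM of untreated cells (0.37 ± 0.08; edgeR adjusted p = 0.00564). Gimap5 rose from 78.9–93.0 to 98.1–114 CPM (0.35 ± 0.06; edgeR adjusted p = 0.00175), and these ranges did not overlap. Those of Gimap1 did, at 208–257 and 251–334 CPM (0.33 ± 0.09; edgeR adjusted p = 0.0149), although it was higher with PGE2 in all 4 same-numbered pairs. Groups without overlap on the higher side were seen in 5 of the 7 tested genes and in 12.1% of all genes tested. Gimap9 did not pass, at 106 ± 4.25 CPM without and 110 ± 8.62 CPM with PGE2 (0.07 ± 0.07; edgeR adjusted p = 0.490). Gimap7 is described only: it stood at 177–204 CPM without and 233–282 CPM with PGE2, a log2 fold change of 0.48 ± 0.07.

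**Figure D4:**
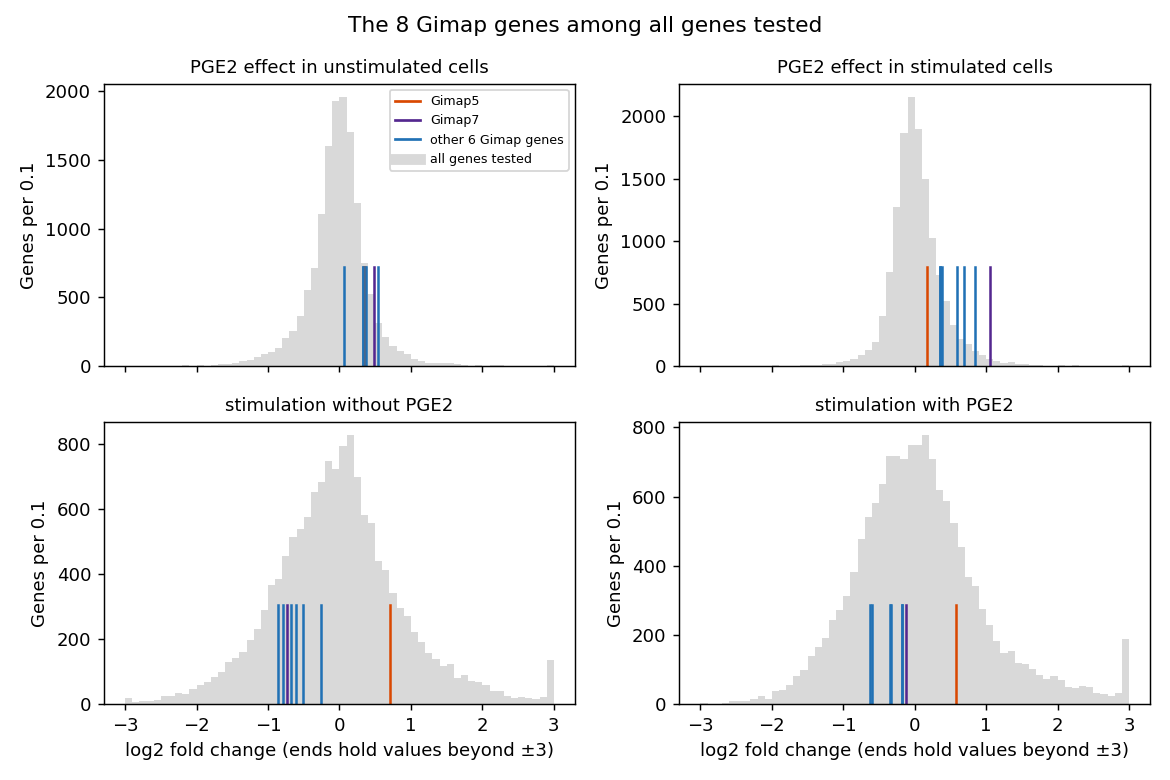
Histograms of the log2 fold change of all genes tested (grey, genes per bin of 0.1) in 4 comparisons, with a line for each Gimap gene: Gimap5 orange, Gimap7 purple and the other 6 blue. The lines lie right of 0 in both PGE2 panels, and in both stimulation panels 7 lie left of 0 and Gimap5 lies right of it.

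Whether the PGE2 effect differed between stimulated and unstimulated cells was tested as an interaction over all 16 samples, in which 0.749% of the 15096 genes tested passed (2.70% with the replicate block). Gimap6 was the 1 of the 7 tested genes that passed: its PGE2 effect was larger by 0.49 ± 0.11 on the log2 scale in stimulated cells (SE; edgeR adjusted p = 0.0440). This call was lost in 4 of the alternative analyses and without any of 12 single samples, as detailed in the closing part. Gimap9 (0.31 ± 0.09, adjusted p = 0.185), Gimap4 (0.25 ± 0.09, adjusted p = 0.312), Gimap3 (0.16 ± 0.12), Gimap8 (0.06 ± 0.09) and Gimap1 (0.03 ± 0.12) did not pass in edgeR, and Gimap5 had a value of −0.17 ± 0.14 (adjusted p = 0.852). Gimap4 passed with the replicate block (adjusted p = 0.0424). For Gimap7 the value was 0.58 ± 0.11, given without a test.

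The order of the 4 groups differed between members. Gimap1, Gimap3, Gimap4, Gimap6 and Gimap9 ran from unstimulated PGE2 through unstimulated untreated and stimulated PGE2 to stimulated untreated cells. In Gimap3, Gimap4, Gimap6 and Gimap9 the 2 middle groups overlapped: Gimap4, for example, measured 983 ± 52.0 CPM in unstimulated untreated and 972 ± 34.7 CPM in stimulated PGE2 cells. Gimap7 and Gimap8 had stimulated PGE2 before unstimulated untreated cells. For Gimap7 the ranges of that step were 234 to 258 against 177 to 204 CPM, described without a test and without a share over all genes. For Gimap8 the ranges overlapped. Gimap5 stood apart with both stimulated groups above both unstimulated groups, and its 2 stimulated groups overlapped.

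Over the 16 samples, the log2 levels of the other members were correlated with that of Gimap7 at Pearson's r of 0.958 for Gimap6, 0.942 for Gimap4, 0.933 for Gimap8, 0.901 for Gimap3, 0.843 for Gimap9 and 0.783 for Gimap1, and at −0.135 for Gimap5. Outside the family, the pattern most like that of Gimap7 among 9906 genes was that of Pik3r5 (r = 0.965), a regulatory subunit of PI3 kinase gamma, with 171, 204, 124 and 183 CPM in unstimulated untreated, unstimulated PGE2, stimulated untreated and stimulated PGE2 cells. It was followed by Ctla2a (0.962), Tcn2 (0.953), which encodes transcobalamin 2, Gpld1 (0.944) and Gm37691 (0.943). Among the nearest to the mean of the 8 standardised members were Tcn2 (0.980), Klrd1 (0.980), which encodes the NK receptor chain CD94, Pik3r5 (0.971) and Pde4b (0.964), a phosphodiesterase that breaks down cyclic AMP. These correlations run across the 4 groups, so they include the differences between group means, and are a description without a test.

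Within 250000 bases of the cluster lay 39 further genes, of which 14 averaged at least 1 CPM and were tested. The neighbours are named for their position. In stimulated cells PGE2 raised 2 of the 14, where 6.04% of all genes were called higher. They were Gm28053 (1.04 on the log2 scale, edgeR adjusted p = 0.00723) and Gimap1os (0.47, edgeR adjusted p = 0.0116), both of which share exon sequence with members. Their levels were low beside those of the members, at most 6.78 CPM for Gm28053 and 16.5 CPM for Gimap1os as group means. In unstimulated cells Gimap1os (0.39) and the zinc finger gene Zfp775 (0.30) rose with PGE2 and Lrrc61 fell (−0.59). That is 2 and 1 of 14, where 12.9% of all genes were called higher and 2253 of 14505 were called lower. Stimulation without PGE2 lowered Zfp467 (−1.47), Zfp775 (−0.93), Lrrc61 (−0.71), Gm28053 (−0.65) and Tmem176b (−0.54) and raised Repin1 (0.72) and Gm7887 (0.39), that is 5 and 2 of 14 where 34.8% of all genes were called lower and 31.7% higher. Stimulation with PGE2 lowered Zfp467 (−1.55), Zfp775 (−0.97), Tmem176a (−0.72), Tmem176b (−0.68) and Zfp862-ps (−0.43) and raised Gm7887 (0.70), Gm10243 (0.65) and Repin1 (0.55), that is 5 and 3 of 14 where 31.7% were called lower and 32.5% higher. AI854703, Gm44226 and 4833403J16Rik did not pass in these 4 comparisons.

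Because GIMAP proteins are tied to lymphocyte survival, 12 genes of the Bcl-2 family, GSK3, beta-catenin and NFATc1 were followed beside them. With PGE2, 1 of the 12 rose and 2 fell in stimulated cells (4 and 4 with the replicate block), where 6.04% of all genes were called higher (19.1% with the block). Of the 13922 genes tested there, 529 were called lower, and 2882 with the block. In unstimulated cells 2 rose and 4 fell (5 and 5 with the block), where 12.9% were called higher (23.6% with the block). Of the 14505 genes tested there, 2253 were called lower, and 3510 with the block. Bcl2l11, which encodes the pro-apoptotic protein BIM, rose the most in both, from 93.9 ± 5.41 to 140 ± 11.8 CPM in stimulated cells (0.59 ± 0.07; edgeR adjusted p = 0.00140) and from 229 ± 15.3 to 342 ± 76.4 CPM in unstimulated cells (0.59 ± 0.12; edgeR adjusted p = 0.00367). Nfatc1 fell in stimulated cells (−0.55 ± 0.11) and Bid, another pro-apoptotic member, in unstimulated cells (−1.12 ± 0.08). Stimulation raised 4 of the 12 and lowered 4 without PGE2, near the shares of all genes called higher (31.7%) and lower (34.8%), and raised 5 and lowered 4 with it, where those shares were 32.5% and 31.7%. Bcl2l1, which encodes the anti-apoptotic protein Bcl-xL, rose from 62.1 ± 9.37 to 453 ± 54.8 CPM without PGE2 (2.85 ± 0.13; edgeR adjusted p = 9.48e-09), and Bcl2l11 fell (−1.30 ± 0.08).

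The 16 listed genes of quiescent and naive T cells were counted in the same way. PGE2 raised 11 of the 16 in stimulated cells and 5 did not pass, where 6.04% of all genes were called higher. With the replicate block 14 rose and 1 fell there, against 19.1% of all genes called higher and 2882 of 13922 called lower. In unstimulated cells 4 rose and 12 did not pass, where 12.9% of all genes were called higher. With the block 10 rose and 1 fell, against 23.6% of all genes called higher and 3510 of 14505 called lower. The median was 0.48 in stimulated cells, against −0.01 over all genes tested. Ccr7, a receptor for homing to lymph nodes, rose the most in both, from 467 ± 105 to 1237 ± 254 CPM in stimulated cells (1.41 ± 0.18; edgeR adjusted p = 0.00153) and from 1083 ± 22.6 to 1651 ± 22.8 CPM in unstimulated cells (0.63 ± 0.05; edgeR adjusted p = 1.42e-05). Without PGE2, stimulation lowered 13 of the 16 and raised 2, with a median of −1.21, where 34.8% of all genes were called lower and 31.7% higher. S1pr1, which lets T cells leave lymph nodes, fell from 250 ± 70.0 to 29.2 ± 4.80 CPM (−3.10 ± 0.19; edgeR adjusted p = 4.75e-08), and Slfn2, a gene of T cell quiescence, rose (0.84 ± 0.16). With PGE2, stimulation lowered 12 and raised 2, where 31.7% were called lower and 32.5% higher. In the interaction 1 of the 16 passed, Klf2 (0.83 ± 0.18; edgeR adjusted p = 0.0391), and 7 with the replicate block, against 0.749% and 2.7% of all genes.

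The 12 other immune GTPases listed, among them the interferon-inducible guanylate-binding proteins, were also followed. PGE2 raised 9 of the 12 in stimulated cells, where 6.04% of all genes were called higher, and 12 with the replicate block (19.1% of all genes). In unstimulated cells it raised 5, where 12.9% were called higher, and 11 with the block (23.6%). Gbp5 rose from 81.9 ± 10.2 to 178 ± 20.5 CPM in stimulated cells (1.13 ± 0.11; edgeR adjusted p = 3.43e-04), and Gbp2 from 275 ± 75.2 to 478 ± 135 CPM in unstimulated cells (0.82 ± 0.21; edgeR adjusted p = 0.0143). Stimulation without PGE2 lowered 6, led by Gbp8 (−0.96 ± 0.09), and raised 3, led by Iigp1 (0.85 ± 0.17), where 34.8% of all genes were called lower and 31.7% higher. With PGE2 it lowered 2 and raised 4, where 31.7% were called lower and 32.5% higher.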

How the data were processed

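RNA-seq was analysed from 16 mouse T cell cultures in 4 groups of 4, grouped by their labels. The members, lists, markers and rules were chosen with earlier results of these data known, and the promoter motifs after the data had been seen.

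The authors made poly(A) libraries (NEBNext Ultra, paired-end, NovaSeq), aligned reads to GRCm38 with HISAT2 2.0.5 and counted them per gene with featureCounts 1.5.0-p3. They deposited raw counts per gene, and FPKM made by the authors from counts and gene length. The annotation release and the use of strand are not given in the sources used here. Poly(A) selection and reads shared between overlapping or similar genes can affect single values.

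From the deposited counts, edgeR 4.0.16 (R 4.3.3) kept genes by filterByExpr at a minimum count of 10, scaled by TMM and applied the two-sided quasi-likelihood test (glmQLFit, glmQLFTest), with Benjamini-Hochberg adjustment over all genes tested. Gimap7 entered each fit but is described without a test, also for stimulation, where a test had been planned. Pairwise fits held 8 samples and the interaction 16. A gene passed at adjusted p below 0.05. CPM values use TMM over 16 samples, and correlations log2 CPM with a prior count of 2. Library totals, 22678254 to 42950763, set the counting error. Replicates of a group differed by 8.46 to 56.8 times sampling noise (chi-square per degree of freedom), more than repeat sequencing of 1 library would give. The fit was also run on simulated independent cultures with fold changes of 2, which leaves its behaviour for smaller changes and paired cultures untested.

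Same-numbered cultures deviated together in the PGE2 comparisons (r = 0.606 to 0.722 stimulated, 0.370 to 0.732 unstimulated) and in stimulation without PGE2 (0.252 to 0.585), and not throughout in stimulation with PGE2 (−0.037 to 0.508). In stimulated cells, cultures of different number also deviated together: r was 0.505 and 0.529 between numbers 1 and 2, and 0.582 and 0.469 between 3 and 4. Between these 2 sets it was −0.509 to −0.705. The stimulated cultures thus also fell into 2 sets, and what each set shares was not tested. The pairing comes from the data, since no label says what a number shares.

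Alternatives were DESeq2 1.42.0, RLE and upper-quartile factors, 2 other filters, the replicate block, limma 3.58.1 on log2(FPKM + 1) and log2(FPKM + 0.1) with a mean of at least 1 FPKM, a joint fit of the 16 samples, and omission of every sample in turn. Shares were compared by exact permutation. The genes named are the 8 members, neighbours within 250000 bases of at least 1 CPM, the 5 most alike patterns at 5 CPM or more, and the largest rise and fall of each list. A few genes that these rules or the marker lists take in are not reported here. Exons came from GENCODE M21, which held 54409 of the 54532 gene identifiers, and promoters from RefSeq (GRCm38.p6), which matched all 8 members. Protein sequences were not used here.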

Additional observations from a re-analysis of the deposited data

Results flagged for a closer look

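Among the 32 sets of 4 replicates of the 8 genes, 3 held a sample that stood apart from the others of its group by Dixon's criterion, which chance alone meets in about 1 in 20 sets. Gimap1 was lowest in replicate 2 of stimulated PGE2 cells, at 176 CPM against 192 to 195 in the others. Gimap7 was lowest in replicate 4 of unstimulated PGE2 cells, at 233 CPM against 276 to 282. Gimap9 was highest in replicate 2 of unstimulated PGE2 cells, at 123 CPM against 104 to 106. Gimap6 was singled out because its response to PGE2 differed between stimulated and unstimulated cells, by 0.49 on the log2 scale (edgeR's interaction test). Its levels were higher with PGE2 in 4 of 4 same-numbered pairs in both settings.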

How the results depend on the processing

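Of 736 alternative values of the members' fold changes, 695 kept their direction and, where a threshold applied, their side of it. A further 22 newly passed, 16 no longer passed and 3 changed sign. The 3 belong to the interaction of Gimap1, which was near 0: −0.0030 with no filter on low counts, and between −0.051 and 0.087 when single samples were left out. Gimap7 is among the 736. Its values for PGE2 in stimulated cells (17), PGE2 in unstimulated cells (17) and the interaction (24) were judged by direction alone. Its values for stimulation were counted by the threshold and hold 1 of the 22, for stimulation with PGE2, which carries no test here. At the same threshold and without Gimap7, 6 of the 7 tested genes passed in each alternative for PGE2 in stimulated cells. The same number passed in each for PGE2 in unstimulated cells, and all 7 in each for stimulation without PGE2. For stimulation with PGE2 the number was 5 to 7 without single samples. With upper-quartile factors all 7 tested genes passed. Those factors moved the median of all genes to −0.13, and the cause was not tested beyond that shift. The number with them was 8 only when Gimap7, which carries no test here, was counted as well. For the interaction it was 0 with RLE factors (Gimap6 adjusted p = 0.0580), no filter (0.0792), and limma on log2(FPKM + 1) (0.0813) or log2(FPKM + 0.1) (0.0663), 2 with the replicate block, and 0 to 1 when single samples were left out. In those fits the Gimap6 value stayed between 0.41 and 0.53, and the call was lost without unstimulated untreated replicate 1, 2 or 3, unstimulated PGE2 replicate 2, 3 or 4, any stimulated untreated replicate, or stimulated PGE2 replicate 2 or 3. At an additional fold change of 2 the number was 0 in all 5 comparisons. With the replicate block, Gimap8 (adjusted p = 0.0219) and Gimap9 (0.0270) passed for stimulation with PGE2, where the numbers did not pair throughout, and Gimap4 for the interaction; no other call of a member changed. What more cultures or more depth would change was not tested.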
